A study of Mus musculus with 10 samples.

Results

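The subject is 10 genes of interleukin-4 (IL-4) signalling: the receptor chains Il4ra, Il13ra1 and Il2rg, the kinases Jak1 and Jak3, the transcription factor Stat6, the inhibitors Socs1, Socs3 and Cish, and the nuclear receptor Pparg. They were picked by name for their known places in the pathway, as 10 of 22165 identifiers in the deposited table, of which 21745 had a gene symbol. All 10 were counted in the table and all 10 were among the 11614 genes with enough counts to test.

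IL-4 binds IL-4Rα, which then pairs with the common γ chain on blood cells or with IL-13Rα1 on many other cells, and the receptor-bound kinases JAK1, JAK3 and TYK2 phosphorylate STAT6, which enters the nucleus as a dimer. SOCS1, SOCS3 and CIS, the product of Cish, belong to a family of inhibitors that cytokine receptors induce and that restrain the same receptors. PPARγ, which binds fatty acid derivatives, is known to act beside STAT6 at genes of alternatively activated macrophages.

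The libraries came from macrophages washed out of the peritoneal cavity of C57BL/6 mice and sorted by staining for CD64, ICAM-2 and CD115. All mice carried floxed alleles of 1 gene, which Cre deletes. Animals with the floxed alleles alone are the wild type of the labels. The knockout animals had LysM-Cre in addition, in which the Lyz2 locus drives Cre in macrophages, neutrophils and other myeloid cells, so the genotypes also differ in the presence of Cre. Mice of both genotypes had been given saline (basal) or IL-4 bound to an anti-IL-4 antibody into the peritoneum, and cells were taken 36 hours later with 5 ml of PBS. No age was given. There were 2 wild-type basal, 3 wild-type IL-4, 2 knockout basal and 3 knockout IL-4 libraries of polyadenylated RNA, with 8762403 to 15024073 counts each. Whether replicates were separate animals is not stated in the labels, and p-values therefore reflect the spread among these samples, which may be technical.

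Gata6, Adgre1 and Csf1r, defining genes of resident peritoneal macrophages, were present in all 10 libraries. Other cell types differed between groups. The 9 matched B cell markers summed to 1201 to 1413 normalised read counts (CPM) in knockout basal libraries and to 132 to 464 CPM in the other 8 libraries. For 7 mast cell and basophil markers the sums were 155 to 256 CPM in knockout basal, 25.9 to 27.7 CPM in wild-type basal and 1.73 to 3.29 CPM in IL-4 libraries. Of 4 eosinophil markers, the granule genes Prg2 and Epx had 0 counts in all 10 libraries and Siglecf and Ccr3 had 43 and 419 in all, with sums of 5.72 to 6.16 CPM in knockout basal and 1.04 to 3.17 CPM in wild-type basal libraries. In such bulk samples, fewer cells that hold a transcript and less of it per cell cannot be told apart.

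Stat6 and Pparg RNA rose with IL-4 when both genotypes were averaged, by 1.59-fold and 12-fold, while Cish fell, by 2.34-fold. Each of these 3 calls was lost when certain single libraries were left out, and none of the 3 genes passed within wild type by edgeR. Socs3 was 1.78-fold lower in knockout than in wild-type macrophages when basal and IL-4 libraries were averaged. That average was chosen after the Socs3 values had been seen. By edgeR, Socs3 did not pass in the basal state alone (adjusted p = 0.0835) or after IL-4 alone (0.0583). The 3 receptor chains and the 2 kinases passed in none of the 7 comparisons by edgeR's quasi-likelihood test or by DESeq2. The plot of CPM by library shows all 10 genes.

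**Figure D1:**
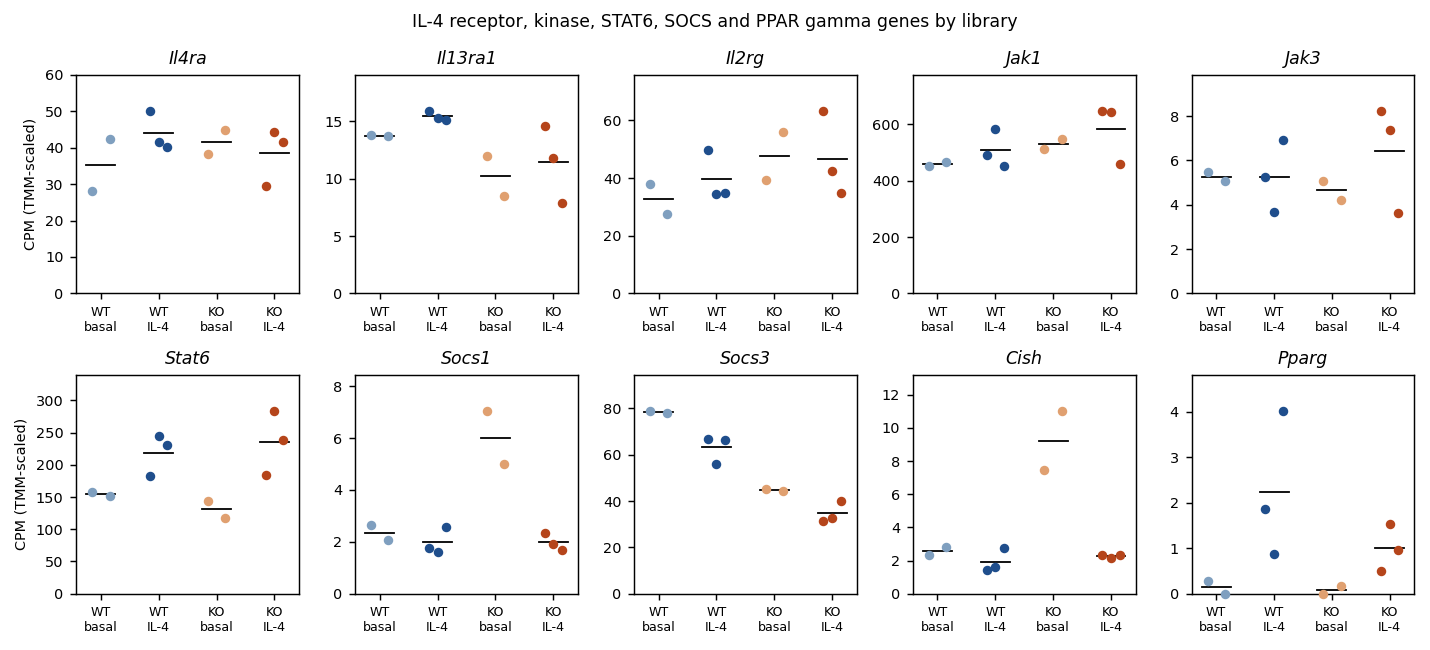
Normalised CPM (vertical axis, from 0) of the 10 IL-4 signalling genes in each library, with WT for wild type and KO for knockout. Points are libraries and short lines are group means. Stat6 and Pparg lie higher in the IL-4 libraries of each genotype, Socs3 lies lower in knockout libraries, and Socs1 and Cish are highest in the 2 knockout basal libraries.

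In log2 values, positive means higher after IL-4 or higher in knockout, and ± gives the standard error. The threshold was an adjusted p under 0.05, by the method of Benjamini and Hochberg over the 11614 genes. IL-4 against basal in wild type passed 0 of 10 genes by edgeR, where 6.06% of all genes passed. In that comparison 1 of the 10 had an unadjusted p under 0.05, against 21.3% of all genes, and DESeq2 passed 1, Pparg, against 10.2%. In knockout, IL-4 passed 1 of 10 as higher (Stat6) and 1 of 10 as lower (Cish), against 4.09% and 3.51% of all genes and 7.6% in both directions, and DESeq2, which passed 11.8% of all genes, passed Socs1 too. The average over genotypes passed 2 of 10 as higher (Stat6 and Pparg) and 1 as lower (Cish), against 7.03% and 5.82% of all genes and 12.9% in both directions. The median log2 IL-4 effect over the 10 genes was 0.16 in wild type and 0.05 in knockout, and over all genes it was 0.00 in both. The groups did not overlap for 4 of 10 genes in wild type and 5 of 10 in knockout, near the 40.2% and 39.6% of all genes.

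Genotype passed 0 of 10 genes under basal conditions by edgeR, against 4.14% of all genes, with 3 at an unadjusted p under 0.05, against 17.7%, and 2, Socs3 and Cish, by DESeq2, against 7.71%. After IL-4 it also passed 0 of 10, against 0.827%, with 1 at an unadjusted p under 0.05, against 14.4%, and 1, Socs3, by DESeq2, against 3.41%. Groups did not overlap for 7 of 10 genes under basal conditions and 2 of 10 after IL-4, where all genes gave 48.2% and 20.3%. A genotype comparison averaged over both treatments, added after the separate ones had been seen, passed 1 of 10, Socs3 as lower, against 1.68% of all genes as lower and 4% in both directions. The interaction subtracts the wild-type response to IL-4 from that of the knockout. It passed 0 of 10 by edgeR, against 2.81%, with 1 at an unadjusted p under 0.05, against 15.3%, and 0 by DESeq2, against 5.36%.

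**Figure D2:**
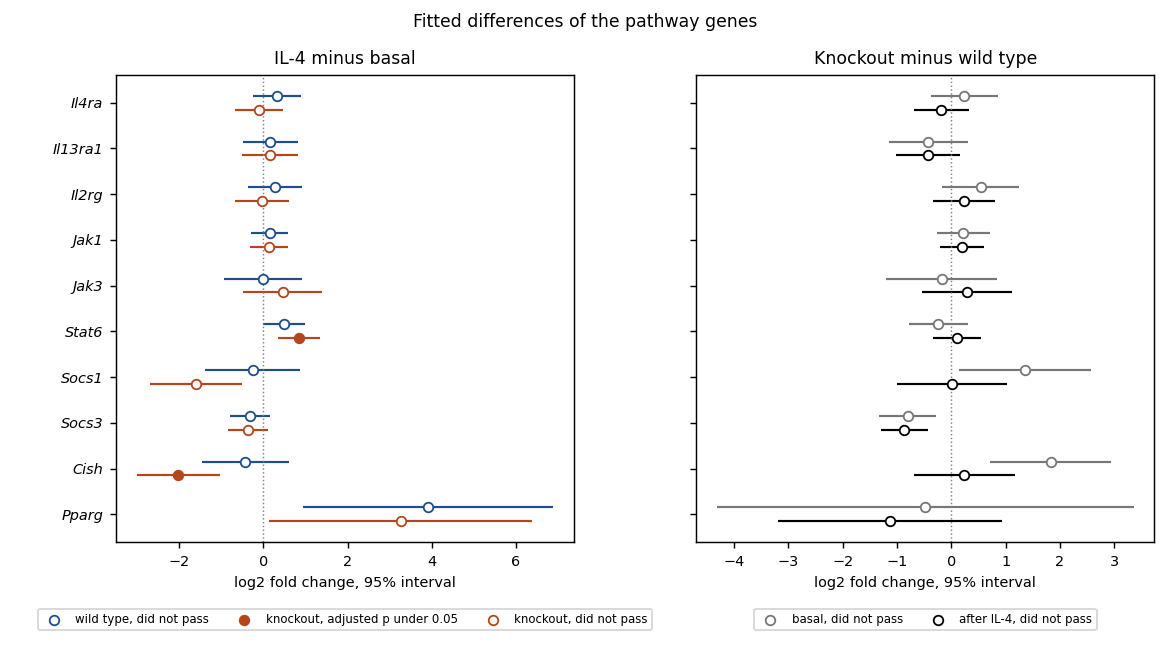
Fitted log2 fold changes (horizontal axis) of the 10 genes with 95% intervals, IL-4 minus basal in each genotype on the left and knockout minus wild type in each state on the right. Filled points passed an adjusted p under 0.05 and open points did not. Stat6 and Cish are filled for IL-4 in knockout, and Socs3 lies left of 0 in both genotype comparisons.

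Levels between genes were compared per kilobase of merged exons. Jak1 was the most abundant, with 62.4 to 89.6 CPM per kilobase over the 10 libraries (median 69.5). Stat6 followed (26.8 to 64.3, median 41.6), overlapping Jak1, and then Socs3 (10.9 to 27.2, median 17.6) and Il2rg (11.6 to 26.5, median 16.2), which overlapped each other. Il4ra lay below these without overlap, at 4.67 to 8.34 CPM per kilobase (median 6.94). Il13ra1 lay below Il4ra without overlap, at 2.12 to 4.28 (median 3.70). Jak3 (0.674 to 1.54), Socs1 (0.549 to 2.42), Cish (0.224 to 1.71) and Pparg (0 to 1.36) lay below Il13ra1 in their medians, 0.965, 0.755, 0.366 and 0.232 CPM per kilobase, and each overlapped the next.

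Il4ra (mm10, chromosome 7, 125552120 to 125579474, plus strand), the chain that binds IL-4, measured 28 and 42.5 CPM in wild-type basal, 50.1, 41.7 and 40.1 in wild-type IL-4, 38.2 and 44.9 in knockout basal, and 29.6, 44.2 and 41.7 in knockout IL-4 libraries. The 4 groups overlapped in every comparison. The IL-4 effect was log2 0.32 (95% interval -0.25 to 0.89, adjusted p = 0.546) in wild type and -0.11 (-0.67 to 0.46, adjusted p = 0.858) in knockout.

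Il13ra1 (chromosome X, 36112110 to 36171259, plus strand), which pairs with IL-4Rα and also serves IL-13, measured 13.8 and 13.7 CPM in wild-type basal, 15.9, 15.3 and 15.1 in wild-type IL-4, 12 and 8.50 in knockout basal, and 14.6, 11.8 and 7.85 in knockout IL-4 libraries. Every knockout library lay below every wild-type library of the same treatment. The averaged genotype difference was log2 -0.43 (95% interval -0.90 to 0.03, adjusted p = 0.310) and did not pass.

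Il2rg (chromosome X, 101264378 to 101268255, minus strand), the common γ chain, measured 38.1 and 27.6 CPM in wild-type basal, 49.8, 34.6 and 34.8 in wild-type IL-4, 39.3 and 55.9 in knockout basal, and 63.3, 42.4 and 34.7 in knockout IL-4 libraries. Knockout basal libraries lay above wild-type basal ones, by log2 0.54 (95% interval -0.17 to 1.24, adjusted p = 0.438), and the IL-4 groups overlapped.

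Jak1 (chromosome 4, 101152367 to 101265282, minus strand), the kinase bound to IL-4Rα, measured 451 and 466 CPM in wild-type basal, 491, 583 and 453 in wild-type IL-4, 514 and 550 in knockout basal, and 648, 643 and 458 in knockout IL-4 libraries. Knockout basal libraries lay above wild-type basal ones, and the groups overlapped in the other comparisons. Its IL-4 effect was log2 0.15 (-0.29 to 0.60) in wild type and 0.13 (-0.31 to 0.58) in knockout. Jak3 (chromosome 8, 71676296 to 71690575, plus strand), the kinase bound to the common γ chain, had only 3.61 to 8.23 CPM in any library, and its intervals were wider, log2 -0.93 to 0.92 in wild type and -0.48 to 1.40 in knockout.

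The other 2 kinases of the family can be read beside them. Tyk2, the kinase bound to IL-13Rα1, averaged 2.25 and 2.19 CPM per kilobase in the wild-type and knockout IL-4 groups and 1.81 and 3.40 in the basal groups. Jak2 averaged 5.68 and 5.36 CPM per kilobase after IL-4 and 4.72 and 7.61 under basal conditions. Both were highest in knockout basal libraries, by log2 0.91 ± 0.32 for Tyk2 (adjusted p = 0.137) and 0.69 ± 0.30 for Jak2 (adjusted p = 0.239), and neither passed.

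Stat6 (chromosome 10, 127642986 to 127660957, plus strand), the transcription factor that carries the IL-4 signal, was higher after IL-4. It measured 158 and 152 CPM in wild-type basal and 182, 244 and 230 CPM in wild-type IL-4 libraries. In knockout it measured 145 and 118 CPM in basal and 184, 283 and 239 CPM in IL-4 libraries. Every IL-4 library lay above every basal library of either genotype. The rise passed in knockout (1.79-fold, log2 0.84 ± 0.24, adjusted p = 0.0419) and on average (log2 0.67 ± 0.17, adjusted p = 0.0161). In wild type it was log2 0.49 ± 0.23, adjusted p = 0.240. The IL-4 effects of the 2 genotypes did not differ past the threshold (interaction log2 0.35, 95% interval -0.35 to 1.04, adjusted p = 0.682).

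The Stat6 call in knockout was lost without knockout basal replicate 1 (adjusted p = 0.122) or 2 (0.300), knockout IL-4 replicate 2 (0.0953) or 3 (0.0754), or wild-type IL-4 replicate 2 (0.0544) or 3 (0.0674), at log2 0.69 to 0.996. The averaged call was lost without knockout basal replicate 2 (adjusted p = 0.0844) or wild-type basal replicate 2 (0.0534). Among all tested genes, Junb, a subunit of the AP-1 transcription factor, had the log2 profile nearest to Stat6 over the 10 libraries, with a root mean square difference of 0.12, where Stat6 itself ranged over 1.26 log2 units. Wdr3 and Tnpo1, an importer of nuclear proteins, followed at 0.13 and 0.14.

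Promoter sequences are shown for the 3 inhibitors, since genes of this family are known targets of STAT proteins and Socs3 differed in its pattern from the other two. Each run covers 250 bases before to 30 bases after the RefSeq start (GRCm38.p6, the build mm10 names), 5′ to 3′ on the gene's own strand, and capitals mark TTCNNNGAA, the spacing known to be bound by several STAT proteins. The Cish run is chr9:107296409-107296688 on the plus strand, the Socs3 run chr11:117969337-117969616 on the minus strand and the Socs1 run chr16:10785507-10785786 on the minus strand.
Cish: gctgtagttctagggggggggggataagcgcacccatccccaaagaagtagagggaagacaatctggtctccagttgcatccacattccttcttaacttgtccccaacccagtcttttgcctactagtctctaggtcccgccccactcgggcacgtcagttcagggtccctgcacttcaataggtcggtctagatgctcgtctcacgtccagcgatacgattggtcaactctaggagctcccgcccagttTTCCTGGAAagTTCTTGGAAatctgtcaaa
Socs3: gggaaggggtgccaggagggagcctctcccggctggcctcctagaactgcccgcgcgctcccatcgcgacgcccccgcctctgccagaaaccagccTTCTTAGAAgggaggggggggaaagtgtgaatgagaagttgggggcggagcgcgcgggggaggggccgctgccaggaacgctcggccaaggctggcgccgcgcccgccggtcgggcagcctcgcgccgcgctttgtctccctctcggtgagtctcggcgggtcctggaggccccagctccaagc
Socs1: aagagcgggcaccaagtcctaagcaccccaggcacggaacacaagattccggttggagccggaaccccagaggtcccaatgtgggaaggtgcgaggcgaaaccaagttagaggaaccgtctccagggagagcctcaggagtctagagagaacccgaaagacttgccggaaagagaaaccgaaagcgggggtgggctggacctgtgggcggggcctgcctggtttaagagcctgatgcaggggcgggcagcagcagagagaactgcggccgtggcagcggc

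Cish held 2 matches, TTCCTGGAA and TTCTTGGAA, whose first bases were bases 1 and 12 counted from its start. Socs3 held 1 match, TTCTTAGAA, whose first base lay 154 bases before its start. Socs1 held 0 matches. The search ran over 300 bases, to 50 bases after the start, and the motif reads the same on both strands. Of 32851 mouse windows of that length, 8.30% held at least 1 match and 0.457% at least 2. The 10 genes had 12 windows, of which 2 held a match. TTCNNNNGAA, the wider spacing that STAT6 is known to prefer, was in 0 of the 12 windows and in 6.95% of all windows, and no matches overlapped. The RefSeq starts are not the only ones: of GENCODE M21 transcripts, 1 of 5 for Cish and 0 of 3 for Socs3 held the bases just after the start used here. The Cish and Socs3 runs lie wholly inside the gene spans given below, so their bases before the start are not upstream of the annotated gene.

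Socs3 (chromosome 11, 117966079 to 117970047, minus strand), best known as the inhibitor of receptors that signal through gp130, was lower in knockout libraries in both states. Under basal conditions it measured 78.8 and 77.9 CPM in wild type and 45.4 and 44.2 CPM in knockout. After IL-4 it measured 67.0, 56.2 and 66.3 CPM in wild type and 31.5, 32.6 and 39.9 CPM in knockout. Every knockout library, with or without IL-4, lay below every wild-type library. The difference was log2 -0.81 ± 0.25 under basal conditions (adjusted p = 0.0835) and -0.87 ± 0.20 after IL-4 (adjusted p = 0.0583) by edgeR, and DESeq2 gave adjusted p = 0.0207 and 0.00267.

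Averaged over both treatments, Socs3 was 1.78-fold lower in knockout (log2 -0.84 ± 0.16, 95% interval -1.17 to -0.50, adjusted p = 0.00876). This comparison was chosen after the Socs3 values had been seen. It passed in all 15 other fits, with adjusted p between 2.48e-05 and 0.0498 and log2 between -0.89 and -0.78, and in the 10 of those that left out 1 library each. The IL-4 effect on Socs3 did not differ between genotypes past the threshold (interaction log2 -0.06, 95% interval -0.73 to 0.61, adjusted p = 0.959). IL-4 libraries lay below basal libraries of the same genotype, by log2 -0.31 ± 0.22 in wild type (adjusted p = 0.463) and -0.37 ± 0.22 in knockout (adjusted p = 0.343), and neither passed. The nearest log2 profiles over the 10 libraries were those of Ak6, Preb and Mcfd2, with root mean square differences of 0.18, 0.18 and 0.19.

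Cish (chromosome 9, 107296026 to 107302784, plus strand), which encodes CIS, an inhibitor best known from receptors that signal through STAT5, was highest in the knockout basal libraries. It measured 7.46 and 11 CPM there and 2.36 and 2.83 CPM in wild-type basal libraries. After IL-4 it measured 1.44, 1.60 and 2.78 CPM in wild type and 2.34, 2.15 and 2.32 CPM in knockout. The knockout basal libraries lay above the other 8. With IL-4, Cish fell in knockout (4.06-fold, log2 -2.02 ± 0.46, adjusted p = 0.0148), and the wild-type value was log2 -0.43 ± 0.49 (adjusted p = 0.671). The basal genotype difference was log2 1.83 ± 0.53 (adjusted p = 0.0651; DESeq2 adjusted p = 0.0157), and the interaction, log2 -1.59 (95% interval -3.04 to -0.14, adjusted p = 0.278), did not pass.

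The Cish call in knockout was lost without knockout basal replicate 2 (adjusted p = 0.187). The averaged IL-4 call (log2 -1.23 ± 0.34, adjusted p = 0.0256) was lost without that library (0.139), wild-type basal replicate 2 (0.0744), or wild-type IL-4 replicate 1 (0.0520) or 2 (0.0587). Exons of Cish overlap Gm17041 and Gm17040 on the opposite strand over 479 and 261 bases, and the strand setting of the counting is not given in the sources used here, so reads of both strands cannot be told apart. The same holds for Il4ra, which overlaps Gm44876 over 571 bases, and Stat6, which overlaps Nab2 over 40 bases. On the same strand, Il2rg shares 728 exon bases with Gm20489 and Jak3 shares 404 with Insl3. Gm20489 and Insl3 had 0 counts in all, and how reads in the shared bases were counted is not given.

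Socs1 (chromosome 16, 10782240 to 10785536, minus strand), an inhibitor that binds JAK kinases directly and is known to be induced by IL-4, had a pattern of the same shape. It measured 7.03 and 5.01 CPM in knockout basal and 2.64 and 2.06 CPM in wild-type basal libraries. After IL-4 it measured 1.78, 1.60 and 2.57 CPM in wild type and 2.34, 1.92 and 1.68 CPM in knockout. The knockout basal libraries again lay above the other 8. The IL-4 effect in knockout was log2 -1.60 ± 0.51 (adjusted p = 0.0709 by edgeR, 0.0281 by DESeq2), and the basal genotype difference was log2 1.35 ± 0.58 (adjusted p = 0.226). Between genotypes after IL-4 it was log2 0.00, with a 95% interval of -1.01 to 1.02, which leaves room for a change of 2-fold either way.

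The knockout basal group, in which Cish and Socs1 were high, also held the most transcripts of B cell and mast cell genes. All 9 matched B cell markers were higher in knockout than wild-type basal libraries past the threshold (median log2 3.14, against 2.61% of all genes as higher) and all 9 fell with IL-4 in knockout (median log2 -2.003, against 3.51% of all genes as lower). In wild type, all 9 B cell markers lay higher after IL-4 (3 past the threshold, against 379 of 11614 genes as higher, median log2 0.99). Cish and Socs1 had log2 -0.43 and -0.25 there. Of 6 tested mast cell and basophil markers, 3 passed as lower after IL-4 in wild type (median log2 -2.92, against 325 of 11614 genes). In knockout 5 of the 6 passed as lower after IL-4 (median log2 -6.88, against 3.51%). Between basal genotypes 4 of the 6 passed as higher in knockout (median log2 2.82, against 2.61%). The T and NK cell markers, 7 of 8 matched, summed to 92.1 to 94.7 CPM in knockout basal libraries and to 21.2 to 36.6 CPM in the other 8, but 1 gene, Cd2, made up most of this. Without Cd2, the other 6 summed to 9.75 to 10.3 CPM in knockout basal and 7.55 to 9.59 CPM in wild-type basal libraries. After IL-4 these 6 summed to 0.768 to 5.28 CPM in knockout and 3.72 to 4.63 CPM in wild type. Cd2 was the 1 of 6 tested markers of this list that passed as higher between basal genotypes. Of the 7, Cd3e and Nkg7 were at 0 in 3 libraries each, Ncr1 in 4 and Klrb1c in 6. The genes with log2 profiles nearest to Cish over the 10 libraries were Fgd2, Cd2 and Gimap5, with root mean square differences of 0.34, 0.34 and 0.35, where Cish ranged over 2.79 log2 units. Cd2, an adhesion molecule on the T and NK cell list, averaged 83.4 CPM in knockout basal and 20.2 to 20.9 CPM in the other groups. The part of these cells in the Cish and Socs1 values was not tested.

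**Figure D3:**
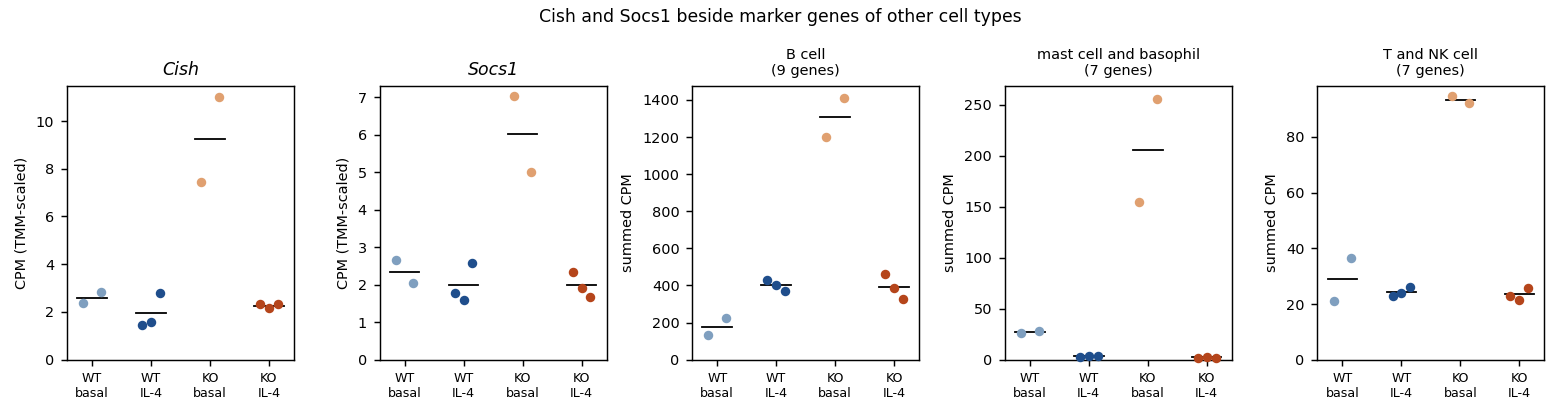
CPM by library (vertical axes, from 0) of Cish and Socs1 beside the summed CPM of B cell, mast cell and basophil, and T and NK cell markers, with WT for wild type and KO for knockout. Points are libraries and short lines are group means. In each panel the 2 knockout basal libraries are the highest. Cd2 makes up most of the T and NK cell sums. Without it the other 6 markers summed to 9.75 to 10.3 CPM in knockout basal and 7.55 to 9.59 CPM in wild-type basal libraries.

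Beside Socs3, which was lower in knockout in both states, some marker sums parted the genotypes in both states and others did not. Dendritic cell markers, 5 matched, summed to 11.5 to 12.1 CPM in wild type and 29.2 to 38.4 CPM in knockout under basal conditions and to 13.1 to 22.2 CPM and 25.5 to 28.7 CPM after IL-4. Cd209a made up most of their counts, with 1839 in all against 127 to 216 for each of the others. In each state only 3 of the 5 lay higher in knockout. Under basal conditions 1 of the 5 passed as higher, against 2.61% of all genes, and after IL-4 0 passed, against 0.827% in both directions. The 10 markers of large peritoneal macrophages summed to 28752 to 31691 CPM in wild type and 8583 to 15676 CPM in knockout under basal conditions and to 11328 to 12563 CPM and 8891 to 10099 CPM after IL-4. Most of that sum was Lyz2 in wild-type basal libraries, and without Lyz2 the other 9 summed to 6849 to 8091 CPM and 5919 to 6001 CPM under basal conditions and to 5416 to 5662 CPM and 6003 to 6045 CPM after IL-4. After IL-4, the B cell markers summed to 371 to 427 CPM in wild type and 328 to 464 CPM in knockout. Neutrophil markers, 7 matched, summed to 79.5 to 87.1 CPM in wild-type IL-4 and 20.8 to 32.5 CPM in knockout IL-4 libraries, with Ly6g, Camp and Ngp at 0 in 9 of 10 libraries. Under basal conditions the neutrophil sums overlapped, at 12 to 35.8 CPM in wild type and 31.8 to 53.7 CPM in knockout. The part of these cells in the Socs3 values was not tested. Lyz2 is a macrophage gene and the locus that drives Cre in the knockout only. It lay lower in knockout, at 2664 and 9675 CPM against 23600 and 21903 CPM under basal conditions. After IL-4 it measured 2845 to 4096 CPM in knockout against 5912 to 7046 CPM in wild type. The part of the Cre allele in the Lyz2 values was not tested.

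Pparg (chromosome 6, 115360951 to 115490399, plus strand) was close to the limit of detection without IL-4. Its counts were 3 and 0 in wild-type basal and 0 and 2 in knockout basal libraries. After IL-4 they were 22, 13 and 39 in wild type and 5, 20 and 12 in knockout, or 0.864 to 4.01 and 0.508 to 1.54 CPM. Each IL-4 library had more Pparg CPM than every basal library. The averaged rise passed (log2 3.59 ± 1.01, adjusted p = 0.0299), and the effects within wild type (log2 3.92 ± 1.40, adjusted p = 0.113) and within knockout (log2 3.26 ± 1.47, adjusted p = 0.201) did not.

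Pooled counts gave a depth-scaled Pparg ratio of 15 in wild type (3 against 74 counts, exact 95% interval 4.94 to 74.5) and 10.7 in knockout (2 against 37 counts, 2.76 to 91.6), where the intervals cover counting error only. The averaged call was lost without knockout basal replicate 1 (adjusted p = 0.107) or 2 (0.0546), wild-type basal replicate 2 (0.0978) or wild-type IL-4 replicate 3 (0.0785). Without 1 library the fitted rise ran from log2 3.09 to 5.48 (8.53-fold to 44.6-fold), with the values over log2 5 reached without knockout basal replicate 2 (5.23) and without replicate 1 of wild-type basal (5.48), where the remaining library of that basal group had 0 counts. After IL-4 the genotypes overlapped, and the difference (log2 -1.13, 95% interval -3.20 to 0.94, adjusted p = 0.635) was too wide to tell a large loss from none. The nearest log2 profiles were those of G6pc, Arhgef39 and Vcan, at root mean square differences of 0.58, 0.66 and 0.67, and G6pc had a mean of only 0.557 CPM.

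RNA of the ligands was nearly absent. Il4 had 8 counts in all, found in the knockout basal libraries, and 0 in the other 8. Il13 had 0 counts in all 10 libraries, where 3 counts, the approximate 95% upper limit for a count of 0, would be 0.199 to 0.324 CPM by library. The IL-4 given to the mice is protein and adds no such RNA.

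Of 26 other genes that act close to the IL-4 and IL-13 receptors, 22 were tested and 1 rose with IL-4 on average, against 7.03% of all genes as higher. It was Gab2, a docking protein for phosphatidylinositol 3-kinase. Gab2 measured 17.3 and 19.1 CPM in wild-type basal, 43.1 to 57.6 CPM in wild-type IL-4, 27.6 and 38.5 CPM in knockout basal and 40.9 to 65.1 CPM in knockout IL-4 libraries. Its averaged rise was 2.04-fold (log2 1.03 ± 0.20, adjusted p = 0.00361), passing in all 15 other fits. The other 21, among them phosphatases and adaptors of the pathway, did not pass, and the list's median was log2 0.16.

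Of 15 other STAT, SOCS and PIAS genes, 2 rose with IL-4 on average and 0 fell, against 7.03% of all genes as higher and 12.9% in both directions. Socs6, a family member known to bind receptor tyrosine kinases, measured 18.3 and 22.7 CPM in wild-type basal, 53.9 to 55.6 CPM in wild-type IL-4, 23.1 and 38.8 CPM in knockout basal and 74.3 to 99.1 CPM in knockout IL-4 libraries. No IL-4 library overlapped a basal one. Its averaged rise was 2.75-fold (log2 1.46 ± 0.19, adjusted p = 1.79e-04) and passed in all 15 other fits. Socs6 thus rose in the comparison in which Cish fell and in which Socs1 (log2 -0.93 ± 0.37, adjusted p = 0.115) and Socs3 (log2 -0.34 ± 0.16, adjusted p = 0.178) did not pass. The Cish average joins log2 -2.02 in knockout with log2 -0.43 in wild type, where Cish did not pass (edgeR adjusted p = 0.671). Pias1, the other gene that rose, lost its call without any of 4 libraries, knockout basal replicate 1 (adjusted p = 0.0839) or 2 (0.0791), wild-type basal replicate 2 (0.112) and wild-type IL-4 replicate 2 (0.0558).

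Of 14 other receptors that use the common γ chain or JAK1, 1 passed on average, against 12.9% of all genes. It was Crlf2, a chain of the TSLP receptor, which fell (log2 -0.61 ± 0.18, adjusted p = 0.0390). Crlf2 kept its call only without knockout IL-4 replicate 1 or wild-type IL-4 replicate 1, and its adjusted p reached 0.158 without knockout basal replicate 2. Of 21 transcription factors and cofactors that act with STAT6 or PPARγ, 20 were tested, 8 rose on average and 0 fell, against 7.03% and 5.82% of all genes. Klf4, Kdm6b and Egr2 kept the call in every fit without 1 library, and Ppargc1b, Snd1, Spi1, Batf3 and Ep300 lost it in at least 1. Klf4, a zinc finger factor known to cooperate with STAT6, rose 2.95-fold (log2 1.56 ± 0.16, adjusted p = 2.34e-05), from 320 and 357 to 686 to 754 CPM in wild type and from 241 and 280 to 858 to 1371 CPM in knockout. Kdm6b, a histone demethylase, rose 1.83-fold (log2 0.87 ± 0.16, adjusted p = 0.00269). Egr2, a zinc finger factor, rose 5.76-fold (log2 2.53 ± 0.59, adjusted p = 0.0112) from low levels, 0 to 0.378 and 0.984 to 1.73 CPM in the basal groups.

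Of 24 known IL-4 and STAT6 target genes of mouse macrophages, 19 were tested, 10 rose and 1 fell on average, against 7.03% and 5.82% of all genes, with a list median of log2 1.38, and 9 of the 11 calls were kept in every fit without 1 library. Slc7a2 (adjusted p = 0.0525) and Matk (0.0938), the gene that fell, lost theirs without knockout basal replicate 2. Chil3, a chitinase-like lectin, went from 1.37 to 1.51 CPM in wild-type basal to 1498 to 2003 CPM in wild-type IL-4 libraries and from 1.34 to 1.41 CPM to 308 to 501 CPM in knockout. Arg1, the arginase of alternatively activated macrophages, rose 91.2-fold in wild type (log2 6.51 ± 0.39, adjusted p = 3.97e-07) and 31.5-fold in knockout (log2 4.98 ± 0.36, adjusted p = 1.56e-06). Between genotypes after IL-4, 2 of the 19 were higher and 3 lower in knockout, against 0.827% of all genes in both directions. Chil3 was 4.26-fold lower in knockout (log2 -2.09 ± 0.21, adjusted p = 1.18e-04) and Clec10a, a galactose-binding lectin, 3.25-fold lower (log2 -1.70 ± 0.22, adjusted p = 0.00245), both kept in every fit without 1 library. Tgm2 was lower too (log2 -2.37 ± 0.39, adjusted p = 0.00793), a call lost without wild-type IL-4 replicate 1 (0.0774), and Ccl24 (log2 0.96 ± 0.20) and Retnla (log2 0.94 ± 0.19) were higher, both with adjusted p = 0.0334. Ccl24 lost its call without any of 5 libraries, knockout IL-4 replicates 2 (0.0764) and 3 (0.0595) and wild-type IL-4 replicates 1 (0.141), 2 (0.101) and 3 (0.160). Retnla lost its own without knockout IL-4 replicates 1 (0.0631) or 2 (0.0783) or wild-type IL-4 replicates 1 (0.137), 2 (0.0599) or 3 (0.185). In the same comparison Stat6 was log2 0.11 ± 0.21 (adjusted p = 0.865) and Il4ra log2 -0.19 ± 0.24 (adjusted p = 0.767).

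Of 16 known PPARγ targets, 14 were tested. On average 3 rose with IL-4, Cpt1a, Angptl4 and Acsl1, and 0 fell, against 7.03% and 5.82% of all genes, with a list median of log2 0.37. Within wild type 3 of the 14 passed as higher and 1 as lower, against 6.06% of all genes in both directions. Within knockout 0 of the 14 passed, against 7.6%. The Angptl4 average joins higher counts after IL-4 in wild type with lower ones in knockout, given below. Acsl1 did not pass in the fits that left out wild-type basal replicate 2 (adjusted p = 0.0697) and knockout basal replicate 1 (0.0709). Cpt1a, the carnitine transferase that admits fatty acids to mitochondria, measured 52.8 to 63.7 CPM in wild-type basal, 141 to 148 CPM in wild-type IL-4, 98.2 to 115 CPM in knockout basal and 126 to 211 CPM in knockout IL-4 libraries. Angptl4, a secreted inhibitor of lipoprotein lipase, had 0 and 1 counts in wild-type basal and 106, 97 and 73 in wild-type IL-4 libraries, against 33 and 29 in knockout basal and 12, 5 and 21 in knockout IL-4 libraries. The depth-scaled Angptl4 ratio of IL-4 to basal was 168 in wild type (exact 95% interval 29.9 to 6660) and 0.354 in knockout (0.230 to 0.539). These intervals cover counting error only, and the wild-type basal group held 1 count. That difference passed as an interaction (adjusted p = 9.58e-04 by edgeR, kept in every fit without 1 library), while the Pparg interaction did not (log2 -0.65, 95% interval -5.60 to 4.30, adjusted p = 0.936). The plot of list shares shows these counts side by side, and the lists were not tested against each other.

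**Figure D4:**
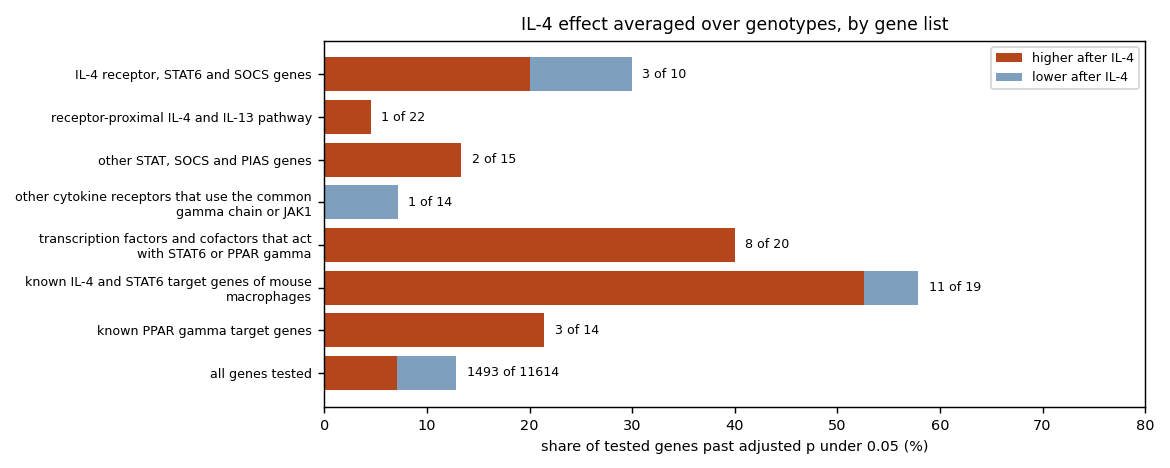
Share of tested genes in each list (horizontal axis, percent) that passed an adjusted p under 0.05 for IL-4 against basal averaged over genotypes, split into higher and lower after IL-4. The number beside each bar gives genes passed of genes tested. The bar for known target genes is the longest, at 11 of 19, and receptor-proximal genes gave 1 of 22 beside 1493 of 11614 genes in all.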

How the data were processed

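What the authors deposited were raw read counts of each gene in each library. Per the submitters' processing notes, STAR and HTSeq were used with mm10; versions, annotation and strand setting are not given in the sources used here. The counts were used unchanged. Ensembl identifiers were looked up in GENCODE M21, where 420 of 22165 had no symbol.

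Genes were filtered (filterByExpr, minimum count 10, minimum total 15), scaled with TMM factors and fitted with edgeR 4.0.16 in R 4.3.3 by the quasi-likelihood test over 4 group means, with 6 residual degrees of freedom and a common biological coefficient of variation of 28.4%. All p-values are two-sided. CPM use the same factors. DESeq2 1.42.0 was run as an alternative. The model was tested on simulated data. None of the 8 pairs of libraries within a group agreed within sampling noise. Promoter windows came from RefSeq (GRCm38.p6), 12 for the 10 genes.

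The genes, lists and tests were chosen with earlier results of these data known. Named genes were the 10, Lyz2, up to 6 genes of a list with the smallest p in a comparison, and the 3 nearest profiles of each gene called. The targeted gene is not reported here. Gata6, Adgre1, Csf1r, Tyk2 and Jak2 were named for their roles. When leaving out a library reduced a basal group to a single one, its spread was taken from the other groups.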

Additional observations from a re-analysis of the deposited data

Results flagged for a closer look

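The IL-4 effect differed between genotypes past the threshold for 8 of 104 tested genes of the pathway and target lists, against 2.81% of all genes, by a test of the interaction with edgeR, and for 0 of the 10 signalling genes. Lower responses in knockout were found for Clec10a (log2 -2.31 ± 0.36), Pdcd1lg2 (log2 -2.98 ± 0.57), Tgm2 (log2 -2.92 ± 0.61), Chil3 (log2 -2.02 ± 0.43) and Angptl4 (log2 -8.59 ± 1.15). Higher responses in knockout were found for Ccl24 (log2 1.76 ± 0.31), Fabp5 (log2 3.35 ± 0.67) and Batf3 (log2 2.19 ± 0.48). Clec10a, Ccl24, Pdcd1lg2 and Angptl4 kept the call in every fit without 1 library. Chil3 lost it without knockout basal replicate 1 (adjusted p = 0.0795) or 2 (0.0783) or wild-type basal replicate 2 (0.0634). Tgm2 lost it without wild-type basal replicate 2 (adjusted p = 0.0501), wild-type IL-4 replicate 1 (0.0547) or knockout basal replicate 1 (0.0612). Batf3 lost it without knockout basal replicate 1 (adjusted p = 0.0868) or 2 (0.0758), wild-type basal replicate 2 (0.114) or wild-type IL-4 replicate 1 (0.0573). Fabp5 lost it without knockout basal replicate 1 (adjusted p = 0.141) or 2 (0.109), wild-type basal replicate 1 (0.101) or 2 (0.0846) or wild-type IL-4 replicate 3 (0.0540). Pdcd1lg2, the gene of a ligand of PD-1, was 15.3 to 16.0 CPM in knockout basal libraries and 2.08 to 6.07 CPM in the other 8, and the B cell marker sums were highest in the same 2 libraries; the part of those cells was not tested.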

How the results depend on the processing

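Of 1088 values of the 10 genes under other settings, 1006 kept direction and side of the threshold, 23 lost a call, 7 gained one and 52 changed sign, 0 of them with a call in either fit. In the tally of genes passed, DESeq2 gave 1 of 10 for IL-4 in wild type, 2 for genotype under basal conditions and 1 after IL-4. Library totals alone gave 1 for IL-4 in knockout and 1 for basal genotype, fits of only the groups compared gave 1 for IL-4 in knockout, and no filter on low counts gave 1 for genotype after IL-4. Without 1 library, the numbers ran from 0 to 2 for IL-4 in knockout and 0 to 3 for IL-4 on average. With the replicate number as a block, 1 gene passed for IL-4 in knockout and 0 for IL-4 on average. The log2 CPM of each library, less its group mean, was correlated between libraries of different groups. Same-numbered libraries gave -0.110 to 0.0620 over 13 pairs, and 0 of 6 IL-4 libraries correlated best with their own number. In each basal group the 2 deviations mirror each other. Many of the pairs are therefore not independent, and they cannot decide whether the numbers pair the libraries.

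Log2 values that changed sign were those of Jak3 for IL-4 in wild type (0.000308 with RLE factors, 0.0635 with library totals, 0.0497 with the replicate block, 0.000486 with DESeq2), Il2rg for IL-4 in knockout (0.0479 with the block), Socs1 between genotypes after IL-4 (-0.0225 with library totals and -0.0208 with no filter), and, with no filter, the interactions of Il13ra1 (0.0082) and Jak1 (0.0016) and Il4ra in the averaged genotype comparison (-0.0127). Without 1 library, the ranges that crossed 0 were -0.24 to 0.20 (Jak3) for IL-4 in wild type, and -0.221 to 0.0381 (Il4ra), -0.071 to 0.425 (Il13ra1) and -0.31 to 0.25 (Il2rg) for IL-4 in knockout. For IL-4 on average they were -0.0281 to 0.265 (Il4ra) and -0.0169 to 0.266 (Il2rg). Between genotypes they were -0.0214 to 0.563 (Il4ra) and -3.77 to 3.30 (Pparg) under basal conditions, and -0.0509 to 0.430 (Il2rg), -0.0485 to 0.248 (Stat6) and -0.14 to 0.22 (Socs1) after IL-4. In the averaged genotype comparison they were -0.11 to 0.18 (Il4ra), -0.0567 to 0.195 (Jak3), -0.15 to 0.0061 (Stat6) and -2.45 to 1.08 (Pparg). For the interaction they were -0.24 to 0.26 (Il13ra1), -0.11 to 0.13 (Jak1) and -4.44 to 2.64 (Pparg). The cause was not tested.

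The Stat6 call in knockout also ended with library totals alone (adjusted p = 0.0704), the block (0.112) and only the groups compared (0.0915 for Stat6), and the block ended the averaged calls of Stat6 (0.0664), Cish (0.0512) and Pparg (0.107). Library totals alone moved the median of all genes to log2 0.13 between basal genotypes, -0.10 for IL-4 in knockout and -0.17 for the interaction. They split basal genotype calls over all genes into 421 higher and 110 lower, against 303 and 178. Fits of only the groups compared cannot be made for averages and the interaction. The 2 libraries in each basal group limit the precision, and Pparg, Cish, Socs1 and Jak3, with 116 to 617 counts in all, are limited by depth.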
